A study of Mus musculus and Homo sapiens with 20 samples.

Results

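The 1000 regions described here had the highest peak tag counts among the stretches of chromatin found open in all hepatocyte libraries of a study of vitamin B2 (riboflavin) deficiency and the aryl hydrocarbon receptor AhR. ATAC-seq reads accessibility from where the transposase Tn5 can cut and tag open DNA. Peaks of the 12 mouse hepatocyte lists were merged on build mm10 where they overlapped by at least 1 bp, on chromosomes 1 to 19 and X. Each library gave a region its highest tag count within it, divided by the library's total of listed tags and multiplied by the mean total, and is called scaled tags below. Of 642948 merged regions, 101575 had a peak in all 12 lists, and the 1000 with the highest mean were taken. The members were thus selected on their mean level over all 12 libraries, which is given as a description, with no test.

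All 12 libraries came from AhR_flox hepatocytes labelled 4 weeks, in 4 groups of 3. The groups were Cont with Ad_Cont, B2_minus with Ad_Cont, Cont with Ad_Cre and B2_minus with Ad_Cre. B2_minus stands for vitamin B2 deficiency per the labels and Cont for its control. Cre is the recombinase that deletes DNA between loxP sites, and every library, controls included, carried the floxed Ahr allele. The protocol speaks of cultured cells, and whether replicates were separate cultures or animals is not stated, so the p-values cover the variation among these libraries alone, part or all of which may be technical. The deleted part of Ahr is not given in the sources used here, and no member lay at Ahr, whose strongest region at a gene end had 72.56 scaled tags and rank 6604.

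Open chromatin in a cell is concentrated at promoters, where nucleosomes are displaced just upstream of the transcription start, and at enhancers. Promoters within CpG islands, stretches in which the CG dinucleotide has not been depleted, serve mostly broadly expressed genes and stand open in most cell types. Their recurring sequence elements include the GC box GGGCGG, bound by Sp and KLF zinc finger proteins, the CCAAT box, bound by the trimeric factor NF-Y, and the ETS motif. Enhancers of hepatocytes carry instead sites of factors such as HNF4, FOXA and C/EBP. AhR is a ligand-activated transcription factor that binds DNA with its partner ARNT.

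The sequences of 8 promoters among the members are shown because they hold the elements counted below or belong to genes named below. Each runs 5′ to 3′ on the gene's strand from 200 bases before to 30 bases after the start, from RefSeq on GRCm38.p6, the assembly of mm10. Capitals mark the GC box GGGCGG and, on either strand like it, the ETS motif CCGGAAG and the box CCAAT, and neighbouring matches can adjoin.
Hjurp: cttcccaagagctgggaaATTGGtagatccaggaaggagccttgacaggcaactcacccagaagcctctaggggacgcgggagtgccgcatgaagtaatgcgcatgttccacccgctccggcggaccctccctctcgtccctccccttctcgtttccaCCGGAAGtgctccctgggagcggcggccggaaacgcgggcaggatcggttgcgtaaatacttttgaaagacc
B3gntl1: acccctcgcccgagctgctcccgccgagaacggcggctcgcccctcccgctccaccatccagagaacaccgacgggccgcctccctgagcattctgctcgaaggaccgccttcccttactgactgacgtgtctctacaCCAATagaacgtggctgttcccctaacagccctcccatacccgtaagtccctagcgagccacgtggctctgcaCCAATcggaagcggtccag
Cnot3: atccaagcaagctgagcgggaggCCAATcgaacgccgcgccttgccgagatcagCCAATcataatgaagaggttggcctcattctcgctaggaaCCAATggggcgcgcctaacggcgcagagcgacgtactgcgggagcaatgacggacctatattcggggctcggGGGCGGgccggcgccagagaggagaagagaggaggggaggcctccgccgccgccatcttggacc
Dnpep: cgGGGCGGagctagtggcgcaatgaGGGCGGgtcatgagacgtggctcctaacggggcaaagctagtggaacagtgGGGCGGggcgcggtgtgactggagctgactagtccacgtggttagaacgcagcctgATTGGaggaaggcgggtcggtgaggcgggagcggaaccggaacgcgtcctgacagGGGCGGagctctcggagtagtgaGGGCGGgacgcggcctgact
Hmgcs1: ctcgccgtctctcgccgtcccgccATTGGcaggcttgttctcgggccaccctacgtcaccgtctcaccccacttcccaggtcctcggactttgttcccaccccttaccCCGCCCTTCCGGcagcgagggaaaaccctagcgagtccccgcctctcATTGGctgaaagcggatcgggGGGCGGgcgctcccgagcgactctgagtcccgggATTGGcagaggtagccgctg
Nr1d2: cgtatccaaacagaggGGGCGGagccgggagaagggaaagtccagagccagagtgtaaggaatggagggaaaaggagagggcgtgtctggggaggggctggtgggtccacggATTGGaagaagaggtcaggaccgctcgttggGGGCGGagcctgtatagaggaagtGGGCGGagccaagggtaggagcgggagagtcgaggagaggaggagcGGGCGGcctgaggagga
Arnt: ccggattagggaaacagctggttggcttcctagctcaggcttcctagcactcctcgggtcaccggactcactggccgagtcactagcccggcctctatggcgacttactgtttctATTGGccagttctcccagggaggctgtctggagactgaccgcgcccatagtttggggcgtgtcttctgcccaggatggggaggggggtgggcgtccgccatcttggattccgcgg
Chchd5: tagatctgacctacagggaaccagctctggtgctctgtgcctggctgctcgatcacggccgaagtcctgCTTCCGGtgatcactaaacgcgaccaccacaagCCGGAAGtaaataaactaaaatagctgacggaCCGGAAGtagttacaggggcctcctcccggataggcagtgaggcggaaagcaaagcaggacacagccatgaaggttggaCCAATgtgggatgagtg
The Cnot3 and Hmgcs1 promoters each hold 3 CCAAT boxes, and that of B3gntl1 holds 2. The Dnpep promoter holds 5 GC boxes and Nr1d2 holds 4. The Arnt promoter has 1 CCAAT box and neither of the other elements, whereas that of Chchd5 has 3 ETS matches.

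The libraries listed 200698 to 281141 peaks with 3897632 to 5557678 tags, after 0.138% to 0.162% of peaks on other sequences were left out. The lowest listed count was 6 to 8 tags per library, and the sequencing depth itself is unknown. The label of hepatocytes was set against markers: all 20 hepatocyte marker genes had a region in all 12 lists at a gene end. Apoa2 (102.7 scaled tags, rank 713), Hpx (90.06) and Trf (88.65) were the highest, and Cyp3a11 (13.15), Serpina1a (13.04) and Cyp2e1 (12.36) the lowest. Of the markers of liver endothelium 3 of 10 had such a region, of Kupffer cells and macrophages 2 of 9, of stellate cells 4 of 8, of cholangiocytes and progenitors 4 of 6, and of lymphocytes 1 of 5. Among all 21631 protein-coding genes 13655 had such a region. The endothelial markers Stab2, Pecam1 and Cdh5 and the Kupffer markers Clec4f, Adgre1 and Csf1r had none. The endothelial markers Lyve1, Flt1 and Kdr had 33.68, 28.73 and 17.59 scaled tags. Sox9 reached 74.58, Sox4 69.98, Cd68 67.1 and Spi1 54.65, above many hepatocyte markers, so levels at gene ends do not rank the cell types. No marker of a cell type other than the hepatocyte was nearest to a member.

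The levels of the 1000 regions fell steeply over the first ranks and then hardly at all. Their mean levels ran from 99.26 to 332.6 scaled tags with a median of 105.6, against a median of 23.35 over the 101575 regions. The 980 regions from rank 21 on lay between 99.26 and 124.2, so rank 1000 is a cut through a continuum. Just inside it were the regions of Ctnnbip1 with 99.291, Foxa3 with 99.29 and Cdc42bpb with 99.256 scaled tags. Just outside were those of Prss12 with 99.23, Larp4b with 99.228 and a region of chromosome 2 starting at 98666767 with 99.224.

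**Figure D1:**
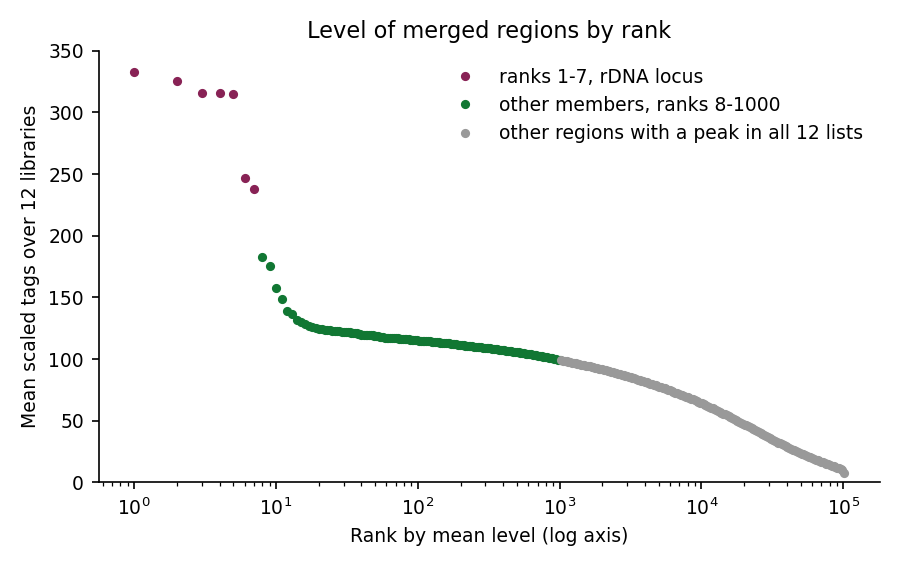
Mean scaled tags over the 12 libraries (y axis) against rank by that mean (x axis, log scale), shown for about evenly spaced ranks on the log axis. The 7 regions of the ribosomal DNA locus lie between 238.3 and 332.6, the members from rank 21 on lie between 99.26 and 124.2, and the curve has no step at rank 1000.

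The mean over the 12 libraries chose the members, so their ranks within single libraries only describe that choice. In a library's own ranking, between 751 and 790 of the members were among its strongest 1000, and 920 members were so in at least 6 libraries, but only 247 in all 12. The members held 2.17% to 2.54% of a library's listed tags and 3.28% to 3.50% of its tags in the 101575 regions. The lowest of these last shares was that of B2_minus with Ad_Cont replicate 1, where the median member had 101.25 TMM-scaled tags against 103.83 to 108.06 in the other 11. Leaving out any single library and ranking again kept 975 to 984 of the 1000.

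The 7 strongest regions sat together on chromosome 17, from 39843282 to 39848464, at or beside Rn18s-rs5, annotated as a pseudogene related to 18S ribosomal RNA. Of all members 4 overlapped this gene, and the 7 are called the ribosomal DNA locus by their position. Ribosomal RNA genes exist in many copies per genome, few of which are in the assembly, and tags of different copies cannot be told apart. The strongest (39848200 to 39848464) had 332.6 scaled tags and the seventh (39846420 to 39846757) had 238.3. Their nearest protein-coding gene ended more than 50 kb away.

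The eighth, at the start of Hjurp, was the strongest region of a protein-coding gene, with 182.5 scaled tags. Hjurp encodes the chaperone that deposits the centromeric histone CENP-A, and the region (chromosome 1, 88277508 to 88277747) was centred 48.5 bp upstream of its start. Its unscaled tags ranged from 164 in Cont with Ad_Cre replicate 1 to 203 in B2_minus with Ad_Cre replicate 3. Ranks 9, 10, 11 and 14 lay away from gene ends. They started at 35305347 on chromosome 9, with 175.6 scaled tags, at 109011760 on chromosome 11, with 157.7, at 5860583 on chromosome 3, with 148.7, and at 98662700 on chromosome 2, with 131.4. The first lay 29390 bp from Rpusd4 and the other 3 had no protein-coding gene within 50 kb. No list of regions with abnormally high signal was applied here, and these 4, far from gene ends, may like the 7 of chromosome 17 collect tags from repeated sequence rather than show how open the locus is, which was not tested.

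A pair of leading regions belonged to 1600014C10Rik on chromosome 7. The one at its start (38183715 to 38183926) had 138.9 scaled tags and one inside the gene (38194977 to 38195218) had 130.3. The rest of the first 20 were at Mtmr4, a phosphatase of endosomal phosphoinositides, with 136.9; Rab40c, a small GTPase of a ubiquitin ligase, with 128.3; and Usp20, a deubiquitinase, with 127.2. B3gntl1, a glycosyltransferase-like gene, followed with 125.7, Cnot3, a subunit of the CCR4-NOT deadenylase, with 125.2, and Dnpep, an aspartyl aminopeptidase, with 124.6.

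Most members were promoters. A gene end lay within 1 kb of 78.3% of them, against 71.9% of the 1000 regions ranked next and 21.65% of all 101575. Of the other members, 129 lay inside genes away from their ends, 58 between genes, and 30 had no protein-coding gene within 50 kb. By the strand-aware table of starts, which is not complete, 749 members were centred within 1 kb of a start. They were centred a median of 103.5 bp upstream, and 83.71% of them upstream, against 17.5 bp and 55.09% for all regions at starts. Starts on both strands lay within 1 kb of 192 of the 749, or 25.63%, against 24.37% of the next 1000 and 16.63% of all regions at starts. The median member was 323 bp wide, close to the 321 bp of all regions. Among other RNAs, 136 members overlapped a lncRNA gene, and 1 each overlapped Rmrp and Rpph1, which encode the RNA components of RNase MRP and RNase P.

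**Figure D2:**
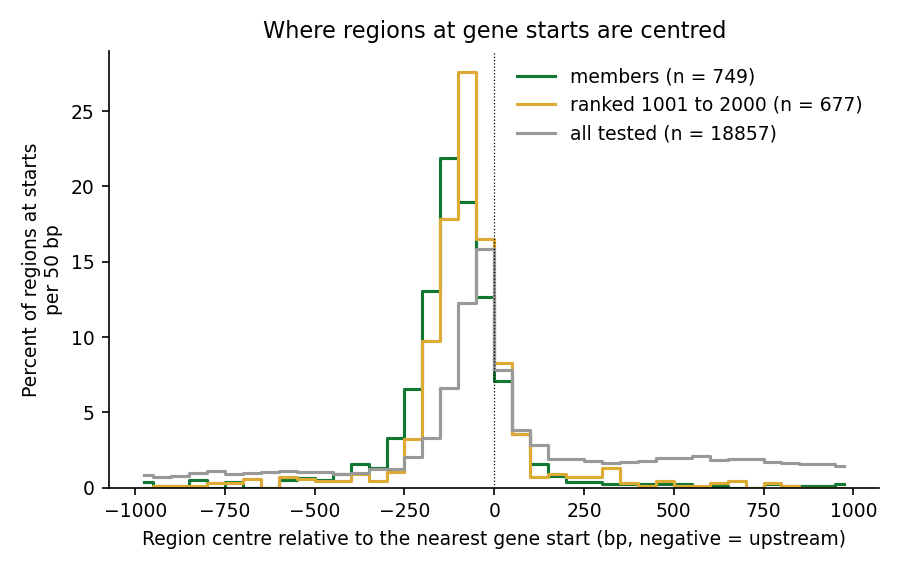
Share of regions (y axis, percent per 50 bp) by the distance of their centre from the nearest gene start (x axis, bp, negative upstream) for the 749 members, 677 regions ranked 1001 to 2000 and 18857 of all tested regions within 1 kb of a start. The members gather about 100 bp upstream, where all regions at starts have a flatter distribution that extends past the start.

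Members came from every autosome and from none of the X chromosome's 1619 regions. Chromosome 7 had the most, 98 of its 6296 regions (1.557%), and chromosome 13 the smallest share of any autosome with 0.6546%. The strongest X region reached rank 3574 with 83.35 scaled tags. Taking the strongest region of each gene start, the median level was 42.9 on the X (353 starts) and 57.23 on autosomes (12220 starts). The number of X copies in these cells is not given in the sources used here, and its part in this gap was not tested.

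The members' promoters held CpG, GC boxes and CCAAT boxes more often than promoters at all tested regions, and TATA boxes less often. In the 300 bases from 250 before to 50 after each start, 742 promoters of members were compared with 13813 promoters at any tested region and with all 32851 in the RefSeq table. The median ratio of observed to expected CpG was 0.802 in members' promoters, 0.722 at all tested regions and 0.384 in the table, and the median GC content was 63.7%, 60% and 52.7%. GGGCGG was present in 80.6% of members' promoters, 59.8% of those at all tested regions and 35.7% of the table. CCAAT was present in 64.7%, 37.1% and 37.4%. Each motif was searched as exact letters on both strands, and matches are a description of the sequence, not of bound factors.

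The CCAAT share was higher in members than in the promoters ranked next, of like base composition. The 675 promoters of the regions ranked 1001 to 2000 had a CpG ratio of 0.803 against 0.802 in members and GGGCGG in 82.7% against 80.6%, with CCAAT in 55.6% against 64.7%. Along the ranking, CCAAT was in 68.4% of regions at starts in ranks 1 to 250, 61.1% in ranks 751 to 1000, 49.1% in ranks 2001 to 4000 and 33% in ranks 8001 to 16000. The GGGCGG share was 82.1%, 79.4%, 76.7% and 65.5% in these 4 steps, so it fell as well, while the CpG ratio lay between 0.784 and 0.825 over all ranks to 16000. At least 2 CCAAT boxes were in 42.7% of members' promoters, 31.3% of those ranked next and 13.6% of those at all tested regions. Of the matches in members, 46.5% lay 150 to 51 bp before the start, close to the 49.9% of those ranked next and the 44.2% of all tested regions. This breakdown was made after the shares of all 16 motifs had been seen.

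**Figure D3:**
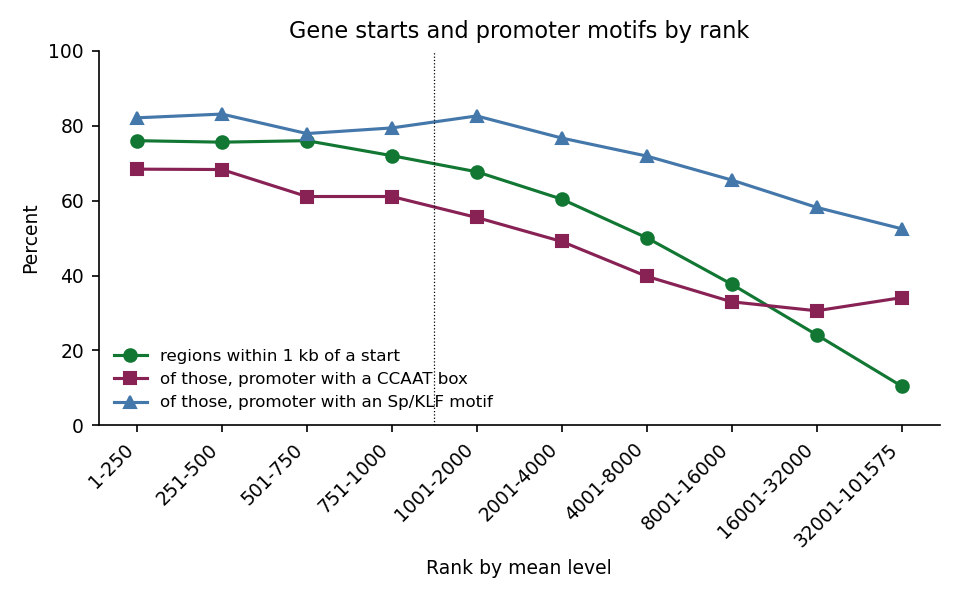
Share of regions within 1 kb of a gene start (green), and among those the share whose promoter holds a CCAAT box (purple) or the Sp/KLF motif (blue), in percent, by rank of the region (x axis). The dotted line marks rank 1000. The CCAAT share falls from 68.4% to 33% between the first bin and ranks 8001 to 16000, and the Sp/KLF share falls less, from 82.1% to 65.5%.

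The level chose the members, so the levels with and without these letters only describe that choice. Regions at starts whose promoter held both CCAAT and GGGCGG had a median of 59.5 scaled tags, and 9.55% of these 4137 regions were members. With GGGCGG but no CCAAT the median was 46.9 (7474 regions, 2.8% members), with CCAAT but no GGGCGG 37.1 (2792 regions, 3.22%), and with neither 35.2 (4454 regions, 1.23%). The member share was thus slightly higher with CCAAT alone than with GGGCGG alone, whereas the median level was lower. The ETS motif CCGGAAG was in 16.2% of members' promoters against 14.8% at all tested regions, but in 21.3% of those ranked next, and the YY1 motif AAGATGGC in 4.85% against 3.81%. The TATA box TATAAA was in 3.37% against 7.86%, and the HNF1 motif GTTAATNA in 1.08% against 1.92%. HNF4's CAAAGTCCA was in none of the 742 against 0.557%, FOXA's TGTTTAC in 1.48% against 3.07%, and C/EBP's TTGCGCAA in 0.539% against 0.311%. These motifs of hepatocyte factors rest on 8 members' promoters for HNF1, 11 for FOXA and 4 for C/EBP, and do not all lean one way. The core of the AhR response element, GCGTG, was in 59.3% against 48.1%, and in 62.1% of those ranked next.

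Members varied little between libraries, as did the regions ranked next. The members' median coefficient of variation within a group was 5.848%, against 6.375% for the next 1000 and 15.32% over all regions, whose levels are lower. Their variance was 0.3652 of the mean, below the value of 1 that counting noise alone would give. That ratio was 0.3844 for the next 1000 and 0.5582 over all regions, but 1.179 for the 7 regions of the ribosomal DNA locus. The SE of the averaged diet difference was 0.05257 on the log2 scale for the median member, 0.05635 for that of the next 1000 and 0.1441 for the median region. Among the strongest regions tags did not rise in proportion to depth. The slope of log2 unscaled tags on log2 tags in tested regions across the 12 libraries had a median of 0.144 for the 7 regions of the ribosomal DNA locus and 0.8281 for the other 993 members. It was 0.8491 for the next 1000 and 1.014 for all regions, where 1 means proportional. Group means were not removed for these slopes, so a difference between groups of unlike depth enters them. A region with a slope under 1 falls on the scaled values wherever libraries are deeper, and the mean tags in tested regions were 2.975e+06 in Cont with Ad_Cont, 3.173e+06 in B2_minus with Ad_Cont, 3.204e+06 in Cont with Ad_Cre and 3.275e+06 in B2_minus with Ad_Cre.

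The comparison of B2_minus with Cont asks whether vitamin B2 deficiency moved these regions, in the Ad_Cont and in the Ad_Cre arm. Differences were small throughout: averaged over both arms they ran from −0.23 to 0.22 on the log2 scale, and 95% of members lay within 0.137 of 0. By edgeR's quasi-likelihood test adjusted over all 101575 regions at 0.05, 39 members differed in the average of both arms, or 3.9%, against a background of 5.78% of all regions. Of these 7 were higher in B2_minus, with 2.45% of all regions called higher, and 32 were lower, with 3.33% called lower. All 39 had the same sign in both arms, which the averaging favours. With Ad_Cont alone 11 members were called, all lower (background 1.04% in all, 0.423% higher and 0.618% lower). With Ad_Cre 2 were called, both lower (background 1.13% in all, 0.354% higher and 0.774% lower). The member shares, 1.1% and 0.2%, were near or under these backgrounds. The 5 members with the lowest p with Ad_Cre were the region inside 1600014C10Rik (log2 difference −0.25, edgeR adjusted p 0.0256), Pknox1 (−0.27, 0.0426), Tjp1 (0.24, 0.0615), Hspa13 (0.24, 0.0635) and the strongest region (−0.13, 0.0754). In bulk libraries, fewer cells with a region open and less opening per cell cannot be told apart.

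Markers of 5 other cell types were compared between the diets in the same way. Of their 14 genes with a tested region at a gene end 2 passed, both lower in B2_minus: the stellate cell marker Lrat (log2 difference −0.59, edgeR adjusted p 0.00715) and the cholangiocyte marker Spp1 (−0.56, edgeR adjusted p 0.00485). The 4 stellate cell genes summed to 75.1 to 104.5 TMM-scaled tags in Cont with Ad_Cont, 69.3 to 83.1 in B2_minus with Ad_Cont, 89.3 to 98.4 in Cont with Ad_Cre and 67.1 to 71.8 in B2_minus with Ad_Cre, while Col1a1, Col3a1, Dcn and Pdgfrb had no such region. The sums overlapped between diets with Ad_Cont and did not with Ad_Cre. The part of such cells in the members' differences was not tested. Of the 20 hepatocyte markers 1 passed, Tdo2, higher in B2_minus (0.32, edgeR adjusted p 0.00265).

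These calls rest on the absence of a Poisson bound and on TMM scaling. With edgeR bounded at Poisson variance 0 members were called in either arm or the average, and with DESeq2 also 0, while limma on log2(tags + 1) called 10, 1 and 36 (1.06%, 0.778% and 5.31% of all regions). Scaled by all listed tags instead of TMM, 149 of the 1000 members were higher and 0 lower in the average, where 9.6% of all regions were higher and 1.97% lower, and the median of all regions then moved up by 0.101. The 32 falls kept a negative sign under it, between −0.14 and −0.02, and 0 of them was called, whereas all 7 rises were called. With a peak required in at least 3 lists, 36 members were called, all higher, against 1.3% of 252554 regions called higher and 0.352% lower. Without Cont with Ad_Cont replicate 1, or without B2_minus with Ad_Cont replicate 1, the Ad_Cont count went from 11 to 0.

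The ribosomal DNA locus had fewer unscaled and TMM-scaled tags in B2_minus, but not a clearly lower share of listed tags. At its strongest region unscaled tags were 326, 338 and 335 in Cont with Ad_Cont, and 327, 323 and 321 in B2_minus with Ad_Cont. With Ad_Cre they were 334, 349 and 350 in Cont and 315, 320 and 324 in B2_minus. The B2_minus values were lower in every comparison with Ad_Cre and in all but 1 with Ad_Cont. Over the 7 regions the mean was 303.4 unscaled tags in Cont and 287.3 in B2_minus with Ad_Cont, and 305.8 and 289.1 with Ad_Cre. In each arm all 7 means were lower in B2_minus, and for 3 regions with Ad_Cont and 4 with Ad_Cre the unscaled B2_minus libraries lay below all Cont libraries, which 3.16% and 4.46% of all regions also did. In TMM-scaled tags the 6 libraries of each diet overlapped at all 7. The other 993 members moved the opposite way in unscaled tags, with means of 101.4 and 106.1, and 108.3 and 110.6. By edgeR all 7 were lower in the average, by −0.12 to −0.15 on the log2 scale, the strongest by −0.13 (SE 0.0285; edgeR adjusted p 0.00167). With listed-tag library sizes the 7 lay between −0.051 and −0.022 (edgeR adjusted p 0.416 to 0.72). With Ad_Cre the locus held 0.0390% to 0.0479% of listed tags in Cont and 0.0421% to 0.0460% in B2_minus. With Ad_Cont the shares were 0.0454% to 0.0537% and 0.0437% to 0.0478%. These 7 share 1 locus and are not independent. Total sequencing depth and the share of ribosomal DNA copies were not measured, and their part in the difference was not tested.

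**Figure D4:**
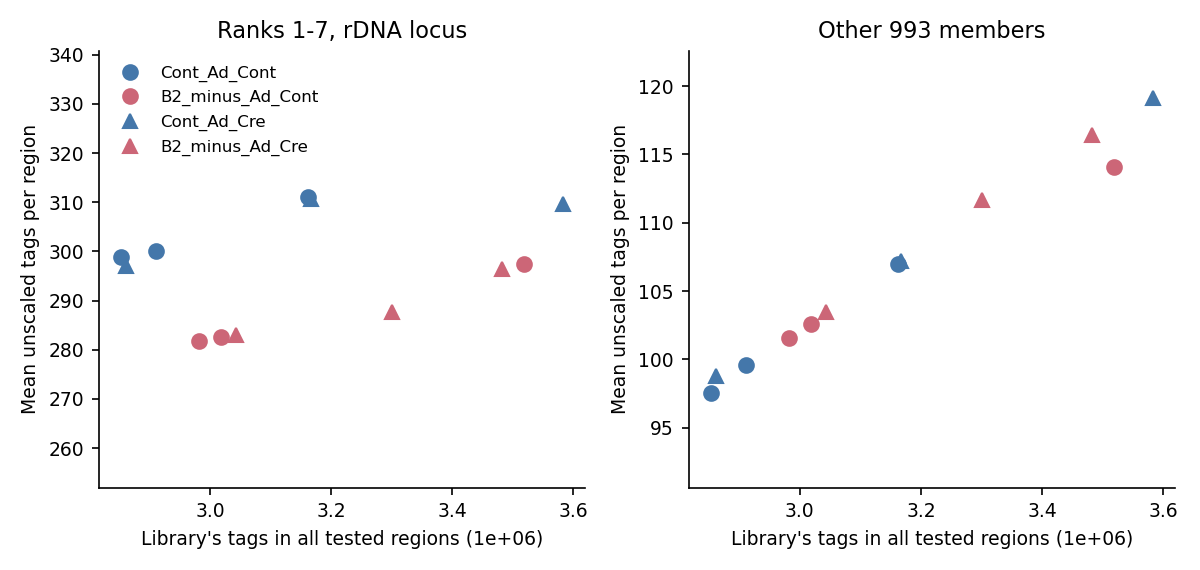
Mean unscaled tags per region (y axis, each panel spanning 15% either side of its mean) against a library's tags in all tested regions (x axis, in units of 1e+06), for the 7 regions of the ribosomal DNA locus (left) and the other 993 members (right); each point is 1 of the 12 libraries, coloured by diet and shaped by Ad arm. The other members rise together with depth in both diets, whereas at the ribosomal DNA locus the B2_minus libraries, at 281.7 to 297.4, lie below Cont libraries of like depth.

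Ranks 9, 10, 11 and 14 were also lower in B2_minus and shared the weak relation to depth, with slopes of 0.3308, 0.1269, 0.01639 and 0.03463. The slopes span both diets and use tags in tested regions, of which B2_minus had more on average in each arm. A fall in B2_minus itself thus lowers the slope. In listed tags the Ad_Cre libraries ran from 4343680 to 5557678 in Cont and from 4304299 to 4926785 in B2_minus. Over both diets the slopes are thus not separate evidence from the falls. Within a group no diet difference enters. Cont with Ad_Cre had 2860966, 3167501 and 3583210 tags in tested regions. Its means at these ranks were 159.2, 158.8 and 160.5 unscaled tags. B2_minus with Ad_Cre had 3043078, 3300855 and 3482097, with means of 143.8, 146.2 and 155. Cont with Ad_Cont had 2852676, 3161886 and 2911312, with means of 157.8, 162.8 and 149.8. B2_minus with Ad_Cont had 3518524, 2981643 and 3018326, with means of 151.8, 136.2 and 146.2. Slopes within groups were not tested. Together with the 7 regions of chromosome 17 and the region inside 1600014C10Rik, ranks 9, 10, 11 and 14 made 12 of the 32 falls. The other 20 falls lay outside the first 20 ranks. The region near Rpusd4 went from 186.1 ± 12.61 TMM-scaled tags in Cont to 164.7 ± 6.717 in B2_minus (SD, n = 6 libraries per diet; edgeR adjusted p 0.00186). That of chromosome 11 went from 167.3 ± 15.78 to 147.6 ± 5.605 (edgeR adjusted p 0.0043). The 8 other regions of the first 20, among them Hjurp (log2 difference 0.04, edgeR adjusted p 0.649) and the start of 1600014C10Rik (−0.02, 0.897), did not pass.

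The largest fall was the region inside 1600014C10Rik. Its TMM-scaled tags were 134.8, 143.3 and 145.8 in Cont with Ad_Cont and 114.7, 123.7 and 127.3 in B2_minus with Ad_Cont. With Ad_Cre they were 143.4, 139.2 and 138.4 in Cont and 114.7, 123.6 and 115.2 in B2_minus. All 6 Cont libraries lay above all 6 B2_minus libraries, as at 6 of the 1000 members and 1.33% of all regions. The opposite held at 2 members and 0.898% of all regions. The averaged log2 difference was −0.23 (SE 0.0455; edgeR adjusted p 0.000226).

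Of the 20 falls outside the first 20 ranks, 18 were at a gene end. They include regions of Npc1, the lysosomal cholesterol exporter; Trappc2l of a vesicle tethering complex, in a region that also overlaps the lysosomal sulfatase gene Galns; Zfpm1, a cofactor of GATA factors; and Mms19 of iron-sulfur protein assembly. At Npc1 TMM-scaled tags were 99.43 to 120.9 in Cont, with a median of 105.8, and 82.43 to 100.2 in B2_minus, with a median of 96.37. The ranges overlapped by less than 1 tag, and the averaged log2 difference was −0.21 (SE 0.0546; edgeR adjusted p 0.0098). Zfpm1 fell from 116.3 ± 5.092 to 101.6 ± 4.572 TMM-scaled tags, with no overlap between diets (SD, n = 6; edgeR adjusted p 0.0074). Mms19 fell from 113.6 ± 3.776 to 99.18 ± 3.387, again with no overlap (edgeR adjusted p 0.0107), and Nt5dc3 from 107.7 ± 5.894 to 93.14 ± 6.405 (edgeR adjusted p 0.00909). The remaining named falls, at Trappc2l and Galns, Cactin, Pknox1, Pkd1, Cib1, Brat1 and Cdk8, lay between −0.20 and −0.18 on the log2 scale. Pkd1 encodes polycystin-1, Pknox1 a homeodomain factor of the TALE class, and Cdk8 a kinase of the Mediator complex. The 32 falls had a median depth slope of 0.3445. A fall in B2_minus, which had more tags in tested regions on average, itself lowers this value.

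The 7 rises were mostly not at promoters, with 3 of them at a gene end. Chchd5, a protein of the mitochondrial intermembrane space and the only one of them within 1 kb of a start in the table, had TMM-scaled tags of 92.82, 91.58 and 87.45 in Cont with Ad_Cont and 112.9, 103.4 and 110.5 in B2_minus. With Ad_Cre they were 91.52, 103.4 and 98.13 in Cont and 116.8, 111.1 and 103.4 in B2_minus. The diets did not overlap with Ad_Cont and met at 103.4 with Ad_Cre. The log2 difference was 0.22 (SE 0.0534; edgeR adjusted p 0.00457). At Tmem115, a Golgi membrane protein, tags rose from 101 ± 5.235 to 115.6 ± 4.34 without overlap (SD, n = 6; edgeR adjusted p 0.00824). The region inside Shroom3, an actin-binding organiser of epithelial shape, lay 62439 bp from the nearer end of the gene. It rose from 99.2 ± 4.176 to 112.3 ± 5.209, also without overlap (edgeR adjusted p 0.0216). Pbx4, Adprh, Mical3 and Gng12 rose by 0.19, 0.19, 0.17 and 0.17 on the log2 scale. The median depth slope of the rises was 1.168. A rise in B2_minus, which had more tags in tested regions on average, itself raises this value.

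**Figure D5:**
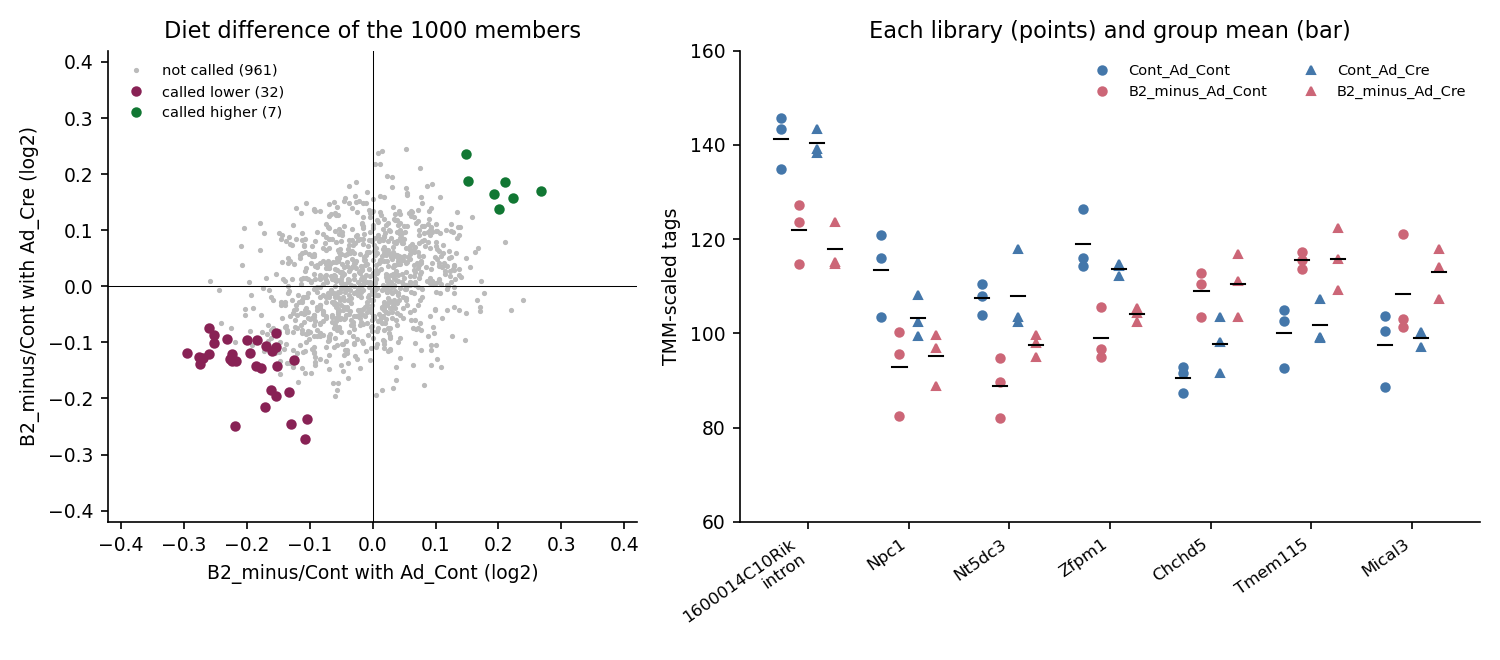
Left, log2 difference between B2_minus and Cont with Ad_Cont (x axis) and with Ad_Cre (y axis) for the 1000 members, with the 32 called lower and 7 called higher in the average coloured. Right, TMM-scaled tags of each library (points) and group means (bars) at 7 called members, on an axis that starts at 60; at 1600014C10Rik, Nt5dc3, Zfpm1 and Tmem115 no Cont library overlaps a B2_minus library.

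Ad_Cre against Ad_Cont moved no member past the threshold. In Cont the count was 0 of 1000, against a background of 0.00591% called. At an unadjusted edgeR p under 0.05 were 37 members, or 3.7%, against 7.818% of all regions. In B2_minus the count was 0 (background 0.00197%). At an unadjusted edgeR p under 0.05 were 36 members, or 3.6%, against 7.291% of all regions. DESeq2, limma and the bounded edgeR also called 0 members in both. The 2 lowest p in Cont were those of ribosomal DNA regions, ranks 7 and 4, with log2 differences of −0.14 (edgeR adjusted p 0.378) and −0.12 (0.382), followed by Tob2 with 0.22 (0.409), Stard9 with −0.20 (0.413) and Sap130 with −0.22 (0.415). In B2_minus the region of Cds2 and Pcna, the sliding clamp of DNA replication, had 0.23 (edgeR adjusted p 0.377), Zfp384 −0.22 (0.47), 9430015G10Rik 0.21 (0.508), Strn −0.20 (0.518) and Osbp 0.18 (0.539). The interaction, which asks whether the diet difference depends on Cre, called 0 members and 0.0% of all regions. It had 41 members at an unadjusted edgeR p under 0.05, or 4.1%, against 5.14% of all regions. The lowest p was that of Stard9, with an interaction of 0.31 (edgeR adjusted p 0.91). The 95% range over members was −0.1774 to 0.2139 on the log2 scale.

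Genes of AhR and flavin biology were present among the members, and 1 of them, Mical3, was called. Of 14 genes of AhR and its targets, 2 were nearest to a member, against 4.785% of all protein-coding genes. Arnt, the partner of AhR, had 98.35 to 115.1 TMM-scaled tags over the 12 libraries (log2 diet difference 0.05, edgeR adjusted p 0.638), and Itpr1, a calcium channel of the endoplasmic reticulum, had 97.56 to 119.4 (0.08, edgeR adjusted p 0.4). Among the 5 genes of riboflavin transport and cofactor synthesis 0 were nearest to a member. Slc25a32, a mitochondrial carrier, came nearest with 98.04 scaled tags and rank 1124, followed by the transporter Slc52a2 with 86.45, the FAD synthase Flad1 with 84.37 and riboflavin kinase Rfk with 82.59.

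Of 21 flavoenzymes, which hold FAD or FMN made from riboflavin, 5 were nearest to a member, or 23.81%. Acadm, the medium-chain acyl-CoA dehydrogenase, Etfdh, which passes its electrons to ubiquinone, and Gcdh did not pass, with log2 diet differences of −0.01, −0.01 and −0.08. Mical3, an actin-oxidising monooxygenase, was the only one called: its region inside the gene (chromosome 6, 121166162 to 121166477) went from 98.36 ± 5.224 to 110.8 ± 8.108 TMM-scaled tags (SD, n = 6; edgeR adjusted p 0.0362). The diets overlapped there.

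Of 14 clock genes 5 were nearest to a member, or 35.71%, the highest share of the lists. Nr1d2, a repressor of the clock's positive arm, ranked 44 with 108.2 to 132.8 TMM-scaled tags over the libraries. Cry2, Arntl, which encodes the activator BMAL1, Dbp and Per1 had 93.19 to 118.9 between them. Their log2 diet differences lay between −0.05 and 0.01, and 0 of 5 was called. Of 28 genes of hepatocyte metabolism 4 were nearest to a member, or 14.29%, among them the sterol synthesis genes Hmgcs1, ranked 29 with 113.6 to 130.6 TMM-scaled tags, and Sqle, and the fatty acid gene Acaca. By edgeR 0 of 4 was called in the average of both arms.

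Among liver identity genes, 2 of 20 hepatocyte transcription factor genes were nearest to a member, or 10%, against the 4.785% of all protein-coding genes. They were Nr0b2 and Foxa3, both through regions away from the start. Of 28 plasma protein genes 1 was, or 3.571%, Apoa2, with a region centred 1042 bp past its start, while Alb reached 57.92 scaled tags at rank 13112. Of 26 AP-1 and immediate early genes 3 were, Atf3 (log2 diet difference −0.13, edgeR adjusted p 0.136), Jun (−0.02, edgeR adjusted p 0.89) and Zfp36l1 (edgeR adjusted p 0.992). Of 81 ribosomal protein genes 5 were, a share of 6.173%, among them Rps21, Rpl37, Rpl14 and Rps19, with Rpl14 only through a region 27205 bp away. Histone genes gave 2 of 85, H2az1 and H2az2, and chaperones 2 of 14, Hspa5 and Dnajb1. Counted instead by a member within 1 kb of a gene end, chaperones gave 3 of 14 and ribosomal protein genes 5 of 81. Single or paired members lay nearest to Nfe2l2 of the antioxidant response, Atf4 of the integrated stress response, Srf and Krt18, Irf1, and Ccng1 (log2 diet difference 0.13, edgeR adjusted p 0.112). The member counted for Krt18 lay 9872 bp from the gene and that for Irf1 16305 bp. In these lists 0 members were called in either direction.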

How the data were processed

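ATAC-seq peak lists of 12 mouse hepatocyte libraries were used. The submitters' processing notes name Bowtie2, HOMER and the build mm10, without versions or roles. Each deposited file lists 1 library's peaks, mostly 200 bp wide, and the authors deposited with each peak a whole count of its tags, under no header. That these counts are unscaled is inferred from the values. No source used here gives the duplicate handling, read shifting or thresholds. The lists of the human cell line HepG2 were not used.

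Counts of the 101575 regions with a peak in all 12 lists were tested with edgeR 4.0.16 in R 4.3.3 (TMM, glmQLFit with legacy=FALSE, 4 groups of 3, Benjamini-Hochberg threshold 0.05), after the same fit was tested on simulated data. The simulated counts were Poisson draws with larger changes than any member showed, so they do not cover small differences at variance below Poisson. The call without a Poisson bound follows earlier work on these files, which found replicates less variable than Poisson. TMM-scaled tags are counts divided by the TMM-adjusted library size relative to the mean library. Total reads are not given, so a library's depth is known only as its listed tags. Alternatives were the bounded edgeR call, DESeq2 1.42.0, limma 3.58.1 on log2(tags + 1), listed-tag library sizes, summed counts, other filters, a replicate block and leaving out each library.

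Genes and promoters came from RefSeq tables of GRCm38.p6. A region was named by its nearest protein-coding gene within 50 kb. Named were the first 20 regions, the 3 on either side of rank 1000, at most 12 called members per direction and contrast (where fewer than 3 were called, the 5 with the lowest p), and at most 4 per gene list; Per1 and Rps19 were added after their values were seen. A few genes of these lists are not reported here. The members and lists were chosen with earlier results of these data known.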

Additional observations from a re-analysis of the deposited data

How the results depend on the processing

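Of the called members, which ones and in which direction depended on the variance bound and the scaling. For B2_minus against Cont with Ad_Cont (11 called), with Ad_Cre (2) and averaged (39), the bounded edgeR call gave 0, 0 and 0 and DESeq2 0, 0 and 0. Library sizes from listed tags gave 1, 90 and 149, all higher (0.996%, 4.49% and 11.6% of all regions called). Summed peak counts gave 0, 0 and 2 (0.0295%, 0.0246% and 1.45%). A peak in at least 3 lists gave 0, 0 and 36, the last all higher (0.0107%, 0.0127% and 1.65%). A mean of at least 20 scaled tags, which leaves fewer regions to adjust over, gave 23, 10 and 61 (1.48%, 1.43% and 6.3%). Limma gave 10, 1 and 36 (1.06%, 0.778% and 5.31%). Shares of all regions are not given here for the bounded call, DESeq2 or the fits without 1 library. Leaving out 1 library gave 0 to 13, 0 to 6 and 24 to 35. The Ad_Cont count was 0 without Cont_Ad_Cont replicate 1 or B2_minus_Ad_Cont replicate 1, 3 without Cont_Ad_Cont replicate 3 and 7 without its replicate 2. The Ad_Cre count was 0 without Cont_Ad_Cre replicate 1 or 2, 6 without its replicate 3, and 1 without any single B2_minus_Ad_Cre library. Without B2_minus_Ad_Cre replicate 1 or 3, that 1 was not among the 2 members called with all libraries. The averaged count was 25 without B2_minus_Ad_Cont replicate 1 and 24 without Cont_Ad_Cre replicate 1. The strongest region (39848200) had a log2 diet difference with Ad_Cre of 0.003 in place of −0.13 under listed-tag sizes. Except where the construction is named, the cause was not tested. Ad_Cre against Ad_Cont, in Cont and in B2_minus, and the interaction gave 0 members under every alternative.

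Same-numbered samples showed no detectable tendency to deviate together. Their 18 correlations lay from −0.0161 to 0.0123, and 36 between differently numbered samples from −0.0133 to 0.0142. Most regions have low counts, whose noise could hide a pairing, so this does not settle whether the numbers pair samples. With a replicate block 9, 2 and 36 members were called.

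Of the 1000 members, 995 stayed with TMM scaling, 717 with summed counts, 945 with medians, 925 with 100 bp of overlap and 848 to 880 with the means of 1 group. The share at a gene end was 75% within 0.5 kb, 81.7% within 2 kb and 76.9% with summed counts.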
